A study of Mus musculus with 46 samples.

Results

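The liver response of pregnant mice to a sunscreen holding zinc oxide nanoparticles was measured as 6 treated mice against 5 untreated mice, 11 of the 46 liver samples of the study. The 11 samples were taken by their labels alone: pregnant at about day 17 of gestation, and either given the nano ZnO sunscreen or untreated. All mice were of SKH:QS, a hairless laboratory stock, and were housed singly under 14 h of light and 10 h of dark. The treated mice had the sunscreen, whose zinc oxide was made from the stable isotope 68Zn, put on the back 6 times over 4 days. On day 5 all mice were killed with injected Xylase and ketamine followed by cervical dislocation, and the liver was taken. The protocol places Elizabethan collars, which limit licking, on the mice without saying separately whether untreated mice wore them. In 6 other pregnant mice the sunscreen held no zinc oxide (formulation), and 5 received the same base with 68ZnO microparticles (micro ZnO). Virgin mice, 6 untreated and 6 given nano ZnO, formed a separate experiment. A test below asks whether their response differed from that of the pregnant mice, and in it pregnancy cannot be told apart from experiment. Ages and sunscreen doses are not given in the sources used here.

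Each mouse gave 1 Affymetrix whole-transcript array, with values as log2 intensities, so a difference of 1 is a doubling of intensity. Among the pregnant arrays the median value ran from 3.98 to 4.12 and correlations between arrays from 0.971 to 0.990. The labels give no scan date or batch for these arrays, and their number limits the precision. The arrays of micro ZnO mice 3 and 4 differed most from the rest, scoring -47.1 and -31.2 along the leading axis of variation (21.8% of the total). They are not among the 11 samples, but they enter the estimate of spread, so calls of named genes that move on leaving them out are given both ways. Counts over gene lists are given both ways for some lists only, and a count without a second value may also move. The 11 measured hepatocyte markers averaged between 12.35 and 12.48 per array in the nano ZnO and untreated mice. Of these 0 of 11 passed an unadjusted p under 0.05, beside 10.2% of all probe sets, and 11 genes are too few to set 0 apart from that share.

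The liver is the main source of the acute-phase plasma proteins. When cytokines such as interleukin 6 and interleukin 1 reach hepatocytes, the transcription factors STAT3, NF-kB and C/EBP raise the genes of serum amyloid A, orosomucoid, haptoglobin and others, and plasma levels follow within hours to days. Zinc is handled by a separate set of genes, in which metallothioneins bind the metal, Slc30 transporters export it from the cytosol and Slc39 transporters import it, and the factor MTF1 raises metallothionein genes when zinc is abundant.

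Between nano ZnO and untreated mice, 5 of 23410 probe sets passed an adjusted p under 0.05 (percent called 0.0214), 4 higher (0.0171%) and 1 lower (0.00427%). The 4 that rose were all acute-phase genes, Saa1, Saa2, Orm2 and Orm1, and the 1 that fell was Mup3, a major urinary protein gene. At an unadjusted p under 0.05 there were 2396 probe sets (10.2%), with 1239 higher (5.29%) and 1157 lower (4.94%), and the median change over all was 0.01. All 6 nano ZnO arrays lay above all 5 untreated arrays at 156 probe sets (0.666%) and below them at 146 (0.624%).

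The 250 bases before the start of 6 genes that the results turn on are shown here because they belong to members of the Saa and Orm families, which hold all 4 genes that rose, and to the gene that fell. They come from RefSeq on the build GRCm38.p6 and are written 5′ to 3′ on the strand of the gene. Orm1, which also rose, had no promoter entry in the sequences used, so its window is not shown. Capitals mark a match to the C/EBP-like letters TTGCNNAA, searched on both strands.
Saa1, chr7:46742981-46743230, minus strand: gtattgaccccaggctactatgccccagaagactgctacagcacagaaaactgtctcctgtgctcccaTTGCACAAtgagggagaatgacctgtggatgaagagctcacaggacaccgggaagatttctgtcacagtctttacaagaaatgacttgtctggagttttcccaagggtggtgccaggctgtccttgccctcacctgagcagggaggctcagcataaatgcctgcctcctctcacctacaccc
Saa2, chr7:46751583-46751832, plus strand: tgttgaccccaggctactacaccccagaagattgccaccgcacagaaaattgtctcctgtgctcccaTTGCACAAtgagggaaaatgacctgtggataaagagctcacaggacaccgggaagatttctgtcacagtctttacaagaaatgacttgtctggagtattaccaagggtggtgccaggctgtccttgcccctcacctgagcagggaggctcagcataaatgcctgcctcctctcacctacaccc
Saa3, chr7:46715677-46715926, minus strand: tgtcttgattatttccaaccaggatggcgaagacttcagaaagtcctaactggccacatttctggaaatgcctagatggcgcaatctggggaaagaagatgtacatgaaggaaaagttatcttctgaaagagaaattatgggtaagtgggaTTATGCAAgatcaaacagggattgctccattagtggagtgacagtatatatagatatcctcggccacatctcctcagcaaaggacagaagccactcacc
Orm2, chr4:63362199-63362448, plus strand: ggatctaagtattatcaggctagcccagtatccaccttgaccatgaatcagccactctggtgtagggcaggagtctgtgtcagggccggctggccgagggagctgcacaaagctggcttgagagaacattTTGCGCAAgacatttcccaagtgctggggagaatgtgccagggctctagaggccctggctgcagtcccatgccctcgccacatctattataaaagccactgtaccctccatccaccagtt
Orm3, chr4:63355908-63356157, plus strand: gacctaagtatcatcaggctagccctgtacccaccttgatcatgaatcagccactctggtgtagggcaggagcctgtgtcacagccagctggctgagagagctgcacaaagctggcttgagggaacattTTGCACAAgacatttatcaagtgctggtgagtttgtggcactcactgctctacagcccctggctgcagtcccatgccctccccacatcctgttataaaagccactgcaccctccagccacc
Mup3, chr4:62087318-62087567, minus strand: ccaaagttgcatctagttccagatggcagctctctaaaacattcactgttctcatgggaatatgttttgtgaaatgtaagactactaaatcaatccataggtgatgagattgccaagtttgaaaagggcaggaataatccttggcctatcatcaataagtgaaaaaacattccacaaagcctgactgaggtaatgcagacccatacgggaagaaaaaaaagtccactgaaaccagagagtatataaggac

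The C/EBP-like letters stood 182 to 175 bases upstream of the start in Saa1, 183 to 176 in Saa2, 99 to 92 in Saa3 (on the opposite strand), 120 to 113 in Orm2 and 121 to 114 in Orm3, and were not found in the 250 bases of Mup3. Of 32851 promoter windows of this length, 9.56% held them. The NF-kB-like letters (GGG, any 3 bases, then TTCC), held by 4.65% of windows, and the STAT-like letters TTCNNNGAA, held by 7.02%, had no match in the 6 windows shown, so no motifs overlapped. These are matches of letters and were not tested as binding sites. The Saa1 and Saa2 windows were identical at 94.8% of aligned bases, against 48.5% for Saa1 and Saa3 and 85.5% for Orm2 and Orm3. Since Saa, Orm and Mup genes have near-identical relatives, a probe set of 1 member may also take up RNA of another, and the split between members is uncertain.

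Serum amyloid A, an apolipoprotein that joins high-density lipoprotein during inflammation, showed the largest changes. Saa1 stood at 6.74, 7.01, 7.07, 5.20 and 6.95 on the untreated arrays and at 9.74, 10.18 and 10.63 (lowest, median and highest) on the nano ZnO arrays. Every treated array was above every untreated array, and untreated replicate 4 lay below the others. Saa1 rose by 3.56 ± 0.40 (SE; 11.8-fold; limma, Benjamini-Hochberg adjusted p = 5.17e-05), and by 3.21 without untreated replicate 4 (adjusted p = 0.000237).

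For Saa2, the close relative of Saa1, the untreated arrays read 7.85, 8.52, 8.23, 6.90 and 8.59 and the nano ZnO arrays 10.87, 11.12 and 11.79. The groups did not overlap, and Saa2 rose by 3.20 ± 0.40 (9.18-fold, adjusted p = 0.000244). Saa3, a family member also made by macrophages and fat cells, read 5.21, 5.39, 4.86, 5.07 and 5.26 without treatment and 7.22, 7.80 and 8.83 with nano ZnO. All 6 treated arrays were again above all untreated arrays, with a difference of 2.76 ± 0.59 that did not pass (adjusted p = 0.132). With micro ZnO replicates 3 and 4 left out of the spread, where Saa3 read 12.47 and 12.96, the same difference had an SE of 0.33 and passed (adjusted p = 9.35e-05). Saa4, the constitutive member of the family, differed by 0.67 ± 0.41 (adjusted p = 0.551), with 4 of 6 treated arrays above all untreated arrays.

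The orosomucoids, plasma glycoproteins that bind drugs and steroids, formed the second group. Orm2 read 8.08, 9.09, 7.62, 8.13 and 7.92 on the untreated arrays and 10.54, 11.02 and 11.31 on the nano ZnO arrays. It had the smallest p of all probe sets and rose by 2.82 ± 0.20 (7.09-fold, adjusted p = 5.02e-09), with no overlap between groups. Orm1, already near the top of the scale, read 11.52, 11.70, 11.45, 11.51 and 11.33 without treatment and 12.13, 12.16 and 12.41 with nano ZnO. Its rise was smaller, 0.71 ± 0.10 (1.63-fold, adjusted p = 0.00114), and again no treated array overlapped an untreated array. Orm3 read 6.24, 7.53, 6.47, 5.74 and 6.89 against 7.30, 7.96 and 8.44. Treated replicate 1 lay within the untreated range, and the difference of 1.31 ± 0.27 did not pass (adjusted p = 0.0822; 0.0317 without micro ZnO replicates 3 and 4). In a fit of the 2 groups alone it did not pass either (adjusted p = 0.101).

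Mup3, a lipocalin secreted by the liver into blood and urine that is more abundant in male than in female mice, read 9.62, 8.41, 9.29, 8.45 and 9.31 on the untreated arrays and 7.53, 7.66 and 8.28 on the nano ZnO arrays. All treated arrays were below all untreated arrays. Mup3 fell by 1.20 ± 0.21 on the log2 scale (adjusted p = 0.0258). The call was lost on leaving out nano ZnO replicate 1, 4, 5 or 6 or untreated replicate 1, 3 or 5, with an adjusted p of up to 0.161 and a fall of at least 1.05. It was also lost in a fit of the 2 groups alone (adjusted p = 0.0694). Other Mup probe sets lay below 0 but were not called. Mup21 differed by -0.17 ± 0.21 (adjusted p = 0.778) and Mup5 by -0.22 ± 0.13 (adjusted p = 0.549). A probe set shared by Mup6, Mup16 and relatives differed by -0.63 ± 0.42 (adjusted p = 0.586).

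**Figure D1:**
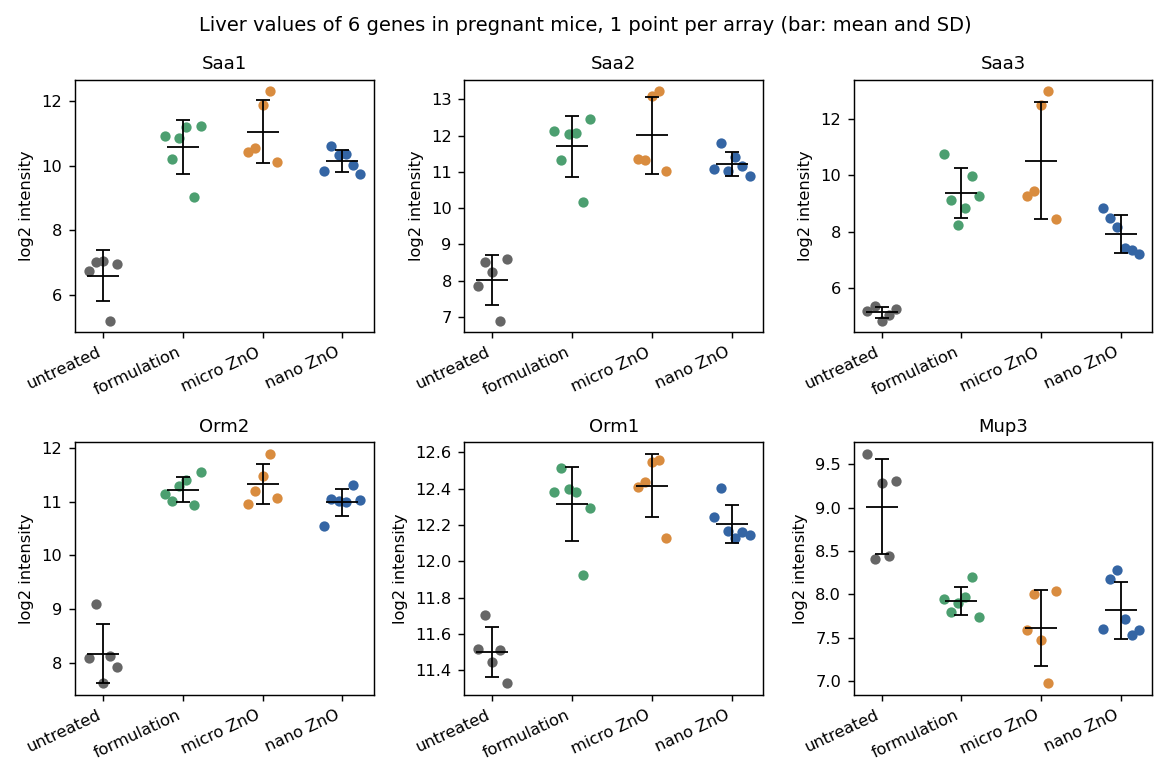
Log2 intensity of 6 genes (y axis) on each pregnant array in the 4 arms (x axis), 1 point per array, with the bar at the mean and its ends at 1 SD. Nano ZnO arrays of Saa1 sit between 9.74 and 10.63, above untreated arrays at 5.20 to 7.07, while Mup3 sits lower with nano ZnO, and the 3 sunscreen arms overlap.

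The acute-phase list as a whole held 29 measured genes, of which 4 were called higher and 0 lower. Without micro ZnO replicates 3 and 4, 9 of 29 were called higher (percent called 0.103 over all probe sets, and 0.0299 lower), namely Saa1, Saa2, Saa3, Orm1, Orm2, Orm3, Hp, Hpx and Lcn2. In a fit of the 2 groups alone 7 of 29 were called higher, beside 10 of all 23410 probe sets. Orm3 and Hpx were not among the 7. With all pregnant arrays and an unadjusted p under 0.05, 16 of 29 were higher and 0 lower, beside 5.29% higher over all probe sets, and 27 of 29 changes were above 0. Without the 2 micro ZnO arrays it was 20 of 29, beside 6.36% higher and 6.19% lower over all. The median change of the list was 0.48 against 0.01 over all probe sets. At 10 of the 29 genes every treated array was above every untreated array, beside 0.666% over all. Averaged over its 29 genes, each untreated array lay between 9.11 and 9.54 and each nano ZnO array between 10.05 and 10.48, so these averages did not overlap.

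Haptoglobin (Hp), which captures free hemoglobin, read 11.99, 12.21, 12.14, 12.19 and 12.29 without treatment and 12.65, 12.68 and 12.81 with nano ZnO. The groups did not overlap, with a difference of 0.53 ± 0.11 (adjusted p = 0.0782; 0.00978 without the 2 micro ZnO arrays). Hemopexin (Hpx), which captures heme, differed by 0.34 ± 0.08, with 6 of 6 treated arrays above the untreated ones (adjusted p = 0.148; 0.0402 without the 2 micro ZnO arrays; 0.179 in a fit of the 2 groups alone). Lipocalin 2 (Lcn2), which binds bacterial iron carriers, differed by 1.53 ± 0.40, also without overlap (adjusted p = 0.220; 0.00224 without the 2 arrays). The fibrinogen genes Fga, Fgb and Fgg, chosen here after their values were seen, differed by 0.09 ± 0.15, 0.09 ± 0.08 and 0.10 ± 0.10, within the spread between arrays. The 2 list members below 0 were Hamp2 at -0.35 ± 0.19 and Hamp at -0.29 ± 0.53, both hepcidin genes, which regulate iron export.

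**Figure D2:**
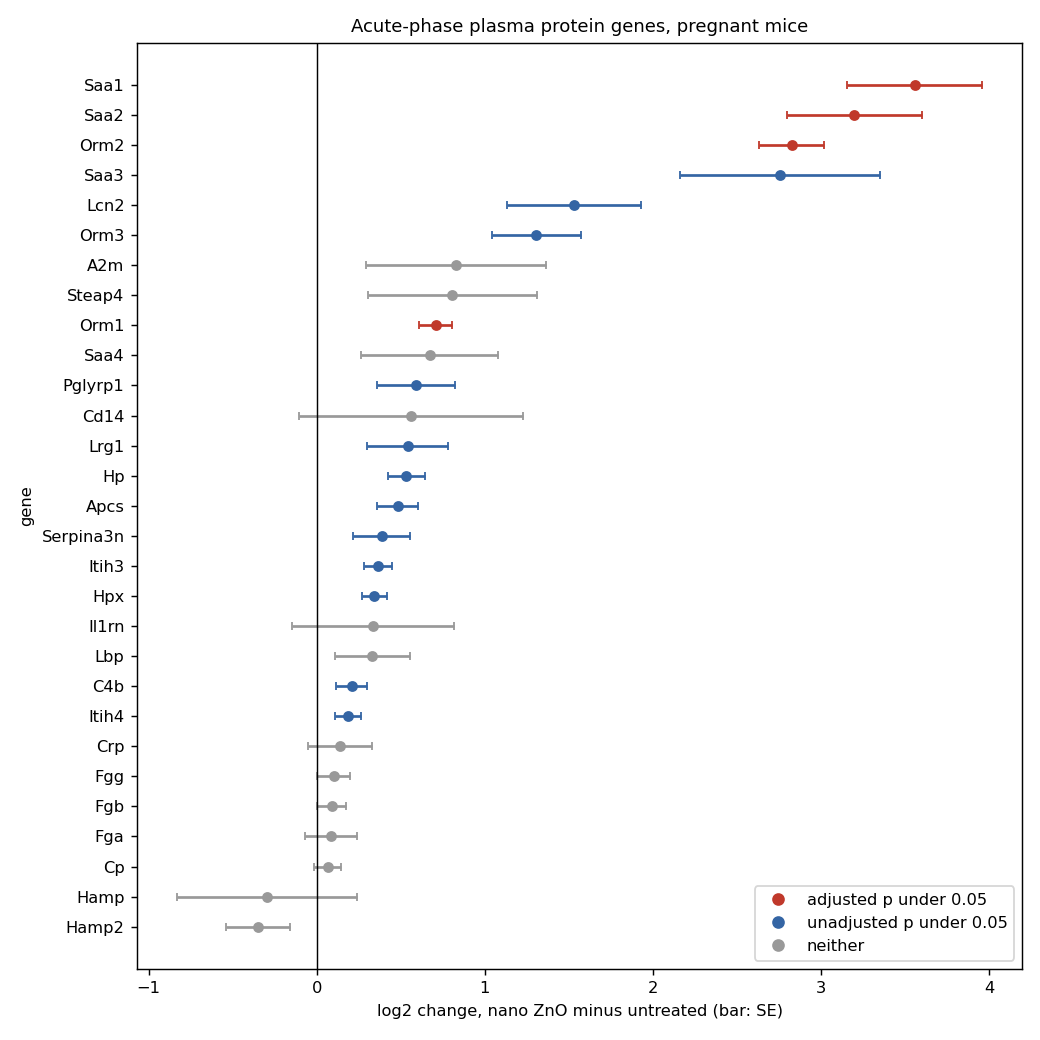
Log2 change from untreated to nano ZnO (x axis, bar at 1 SE) for the 29 measured acute-phase genes (y axis), coloured by whether the adjusted or only the unadjusted p was under 0.05. Saa1, Saa2 and Orm2 stand at 3.56, 3.20 and 2.82, and Hamp2 and Hamp are the 2 genes below 0.

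Cytokine signalling and its feedback act upstream of this response. Of 17 measured genes of interleukin 6 and NF-kB feedback 0 were called, and the median change was 0.21. At an unadjusted p under 0.05, 4 of 17 were higher, beside 5.29% over all probe sets. Cebpb, one of the C/EBP factors, differed by 0.54 ± 0.19, Socs1, a feedback inhibitor of cytokine receptors, by 0.28 ± 0.12, the receptor gene Il6ra by 0.39 ± 0.18 and the neutrophil chemokine Cxcl1 by 0.84 ± 0.40. The count of 4 fell to 2 on leaving out nano ZnO replicate 1, 2, 4 or 6 or untreated replicate 1, 3, 4 or 5.

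Neutrophil markers lay above their untreated level on the same arrays. Of 16 measured markers 0 were called (2, Retnlg and Lcn2, without micro ZnO replicates 3 and 4), and all 16 changes were above 0, with a median of 0.54. At an unadjusted p under 0.05, 9 were higher, beside 5.29% over all probe sets (12, beside 6.36%, without those 2 arrays). The summed linear intensity of the 16 markers ran from 801 to 1221 on untreated arrays and from 1626 to 4244 on nano ZnO arrays. On formulation arrays it ran from 1449 to 3431 and on micro ZnO arrays from 2108 to 9899. Such a sum weighs the brightest markers most, and Lcn2 is also on the acute-phase list. The log2 average of the 16 markers ran from 4.33 to 4.68 on untreated arrays and from 4.72 to 6.38 on nano ZnO arrays. Retnlg, a resistin-like protein of neutrophils, differed by 0.94 ± 0.21 (adjusted p = 0.135; 0.0317 without the 2 micro ZnO arrays; 0.129 in a fit of the 2 groups alone). S100a8 and S100a9, the subunits of calprotectin, differed by 1.45 ± 0.39 and 1.30 ± 0.35 (adjusted p = 0.224 for both). Nano ZnO replicate 1 read highest on the list average, at 6.38 against a median of 5.04. Without it 6 of 16 markers were higher at an unadjusted p under 0.05, beside 4.53% higher and 4.17% lower of all probe sets (8.7% in all), with a median of 0.41. The part of these markers in the acute-phase result was not tested. Without the same array, 15 of 29 acute-phase genes were higher at an unadjusted p under 0.05 and the 4 calls were kept. In these bulk samples more or fewer cells of a type and more or less RNA per cell cannot be told apart.

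Of 17 markers of Kupffer cells, the resident macrophages of the liver, 2 were higher at an unadjusted p under 0.05, beside 5.29% over all probe sets, with a median change of 0.12. These were Mpeg1, a pore-forming protein of macrophages, at 0.63 ± 0.21 and C1qb, a subunit of complement C1q, at 0.29 ± 0.12, and the count was 1 without nano ZnO replicate 3 or 6 or untreated replicate 2 or 4. Of 22 endothelial markers 0 were higher and 4 lower, beside 5.29% and 4.94% over all probe sets, with a median of -0.20. Among the lower ones were Oit3 at -0.48 ± 0.13 (no overlap between groups), Tek, the angiopoietin receptor, at -0.41 ± 0.16 and Eng, endoglin, at -0.40 ± 0.16. The endothelial count ran from 2, without nano ZnO replicate 1 or untreated replicate 1 or 3, to 8, without untreated replicate 5 (7 without nano ZnO replicate 3). It was 9 without the 2 micro ZnO arrays, beside 6.19% lower over all probe sets.

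Genes of zinc handling showed small differences, none of them called. Mt1 read 11.38, 12.17, 11.89, 11.30 and 11.88 on untreated arrays and 12.03, 12.25 and 12.32 on nano ZnO arrays. The treated values spanned less than the untreated ones, only treated replicate 1 lay within the untreated range, and the difference was 0.50 ± 0.13 (adjusted p = 0.220). Mt2 read 11.005, 11.92, 11.90, 11.01 and 10.69 against 11.73, 12.08 and 12.14, a difference of 0.71 ± 0.18 (adjusted p = 0.220). For both genes 5 of 6 treated arrays were above all untreated arrays. Mt4 differed by 0.28 ± 0.10, at means of only 3.95 untreated and 4.23 with nano ZnO, near the median value of an array. Counting Mt4, 3 of the 5 measured genes of the metallothionein list were higher at an unadjusted p under 0.05 and 0 lower, beside 5.29% and 4.94% over all probe sets.

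Slc39a4 (ZIP4), an importer that cells lower when zinc is plentiful, read 6.85, 6.27, 6.51, 7.002 and 6.27 without treatment and 5.99, 6.16 and 6.38 with nano ZnO. Of the treated arrays 5 of 6 were below all untreated arrays, and the difference was -0.42 ± 0.12 (adjusted p = 0.277). Slc30a1 (ZnT1), the exporter at the cell surface, differed by 0.28 ± 0.14 (adjusted p = 0.483), and Slc39a14 (ZIP14), an importer raised in inflammation, by 0.35 ± 0.21 (adjusted p = 0.550). Slc30a10, known mainly as a manganese exporter, differed by -0.46 ± 0.25 (adjusted p = 0.524). Among 14 importers 1 was higher and 3 lower at an unadjusted p under 0.05, and among 10 exporters 1 (Slc30a1) was higher and 0 lower, beside 5.29% higher and 4.94% lower over all probe sets. The exporter counts were 0 higher and 3 lower without nano ZnO replicate 2, 0 and 1 on dropping nano ZnO replicate 1, 0 and 2 on dropping untreated replicate 5, and 0 and 0 on dropping nano ZnO replicate 5 or untreated replicate 3 or 4. The count of 3 lower importers was 1 without nano ZnO replicate 1 or 4 or untreated replicate 4.

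Among 21 glucocorticoid-responsive genes 0 were called, with a median of 0.33. At an unadjusted p under 0.05, 8 were higher and 1 lower, beside 5.29% and 4.94% over all probe sets. Of the 8, Mt1, Mt2 and Lcn2 belong also to lists described above. Estrogen sulfotransferase (Sult1e1), which inactivates estrogens, read 3.51, 6.75, 4.36, 4.18 and 3.20 on untreated arrays and 5.48, 7.40 and 8.10 on nano ZnO arrays. Untreated replicate 2 lay within the treated range, and the difference was 2.74 ± 0.54 (adjusted p = 0.0751). Without that replicate it was 3.33 and passed (adjusted p = 0.00145), as it did without nano ZnO replicate 3 (adjusted p = 0.0204) or without the 2 micro ZnO arrays (adjusted p = 0.0363). In a fit of the 2 groups alone Sult1e1 did not pass (adjusted p = 0.101). Per1, a clock gene that glucocorticoids induce, differed by 0.97 ± 0.30, and Pdk4, which spares glucose by blocking pyruvate oxidation, by -0.71 ± 0.20. The count of 8 was 5 without nano ZnO replicate 5 or 6 or untreated replicate 4.

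Of 20 genes that are more abundant in male than in female mouse liver, 1 (Mup3) was called lower. At an unadjusted p under 0.05, 3 were higher and 5 lower, beside 5.29% and 4.94% over all probe sets. Besides Mup3 the lower genes included Hsd3b2, a steroid dehydrogenase, at -0.83 ± 0.22 with no overlap between groups (adjusted p = 0.224; 0.0218 without the 2 micro ZnO arrays), and the organic anion transporter Slco1a1 at -1.67 ± 0.56 (adjusted p = 0.339). Nano ZnO replicate 1 read lowest for Slco1a1, at 2.35 against a median of 5.00. C8a, a subunit of the complement membrane attack complex, went the other way at 0.52 ± 0.15. The 3 higher male-biased genes became 1 without nano ZnO replicate 3 or untreated replicate 3 or 4.

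Genes of lipid use and lipid synthesis lay mostly below their untreated level, though none was called. Of 40 PPARA targets and fatty acid oxidation genes 35 changes were below 0, with a median of -0.23. At an unadjusted p under 0.05, 13 were lower and 1 higher, beside 4.94% lower and 5.29% higher over all probe sets. Fabp1, the fatty acid binding protein of liver, differed by -0.45 ± 0.15, Acot2, a mitochondrial thioesterase, by -0.33 ± 0.12, Ehhadh, of peroxisomal oxidation, by -0.33 ± 0.13 and Hadhb, of mitochondrial oxidation, by -0.29 ± 0.11. The count of 13 was 5 without nano ZnO replicate 1, 6 without untreated replicate 3 and 8 without untreated replicate 1 or 4. Without the 2 micro ZnO arrays the count was 17, beside 6.19% lower over all probe sets. Adding the interquartile range of the arrays as a covariate gave 5, and it was 8 after further quantile normalization. Over all probe sets the count in either direction, 2396 in the main fit, was 1512 with the covariate and 2116 after further normalization. It was 2037 without nano ZnO replicate 1.

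In the synthesis of fatty acids and triglycerides 23 of 26 changes were below 0, with a median of -0.24. At an unadjusted p under 0.05, 5 were lower and 1 higher, beside 4.94% lower and 5.29% higher over all probe sets. Malic enzyme (Me1), which supplies NADPH for fatty acid synthesis, read 8.80, 8.19, 8.67, 8.99 and 8.69 against 7.65, 7.94 and 8.30. Only treated replicate 2 reached the untreated range, and the difference was -0.73 ± 0.14 (adjusted p = 0.0751), with -0.81 ± 0.16 at a further probe set of the gene. Me1 passed without nano ZnO replicate 2 (adjusted p = 0.0331), without untreated replicate 2 (adjusted p = 0.00994) and without the 2 micro ZnO arrays (adjusted p = 0.0363). In a fit of the 2 groups alone Me1 did not pass (adjusted p = 0.101). The lipid droplet protein gene Pnpla3 differed by -1.01 ± 0.33, the fatty acid elongase Elovl5 by -0.45 ± 0.15 and the transcription factor Srebf1, which raises lipid synthesis genes, by -0.50 ± 0.18. Lpin1, a phosphatidate phosphatase, was the higher member at an unadjusted p under 0.05, at 1.24 ± 0.51. The count of 5 was 8 without nano ZnO replicate 1 or 5 or untreated replicate 2. Without the 2 micro ZnO arrays it was 7, beside 6.19% lower over all probe sets.

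Respiratory chain and ATP synthase genes numbered 51, with a median of -0.08. At an unadjusted p under 0.05, 0 were higher and 9 lower, beside 5.29% and 4.94% over all probe sets. At 5 of them all treated arrays lay below all untreated arrays, beside 0.624% over all probe sets, and one was Sdha, of succinate dehydrogenase, at -0.35 ± 0.09 (adjusted p = 0.220). The count of 9 was 5 without nano ZnO replicate 4 or untreated replicate 1 or 2. Adding the interquartile range as covariate also gave 5. Leaving out the 2 micro ZnO arrays gave 11, beside 6.19% lower over all probe sets. For 30 chaperone and unfolded protein response genes of the endoplasmic reticulum the count was 8 lower and 0 higher, beside the same shares over all probe sets. The median was -0.25, and the lower genes included calnexin (Canx) at -0.21 ± 0.08 and Pdia6 at -0.43 ± 0.17. The count of 8 moved from 1, without nano ZnO replicate 5 or untreated replicate 4, to 19, without nano ZnO replicate 2, and was also moved by nano ZnO replicates 1 and 6 (2 and 5) and untreated replicates 1 and 3 (3 and 13). The count over all probe sets in either direction, 2396 in the main fit, was 2109 without nano ZnO replicate 5. It was 1776 without untreated replicate 4 and 3574 without nano ZnO replicate 2. Adding that covariate gave 1 for the list and further quantile normalization gave 4, beside 1512 and 2116 over all probe sets.

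Among 35 complement and coagulation genes 7 were higher and 0 lower at an unadjusted p under 0.05, beside 5.29% and 4.94% over all probe sets, with a median of 0.07. C8a and C8b, which pair in the membrane attack complex, differed by 0.52 ± 0.15 and 0.40 ± 0.13, and Pros1, the anticoagulant protein S, by 0.41 ± 0.15. Without untreated replicate 4 the count was 2, where the count over all probe sets in either direction was 1776 against 2396 in the main fit. Of 28 interferon-stimulated genes 0 were higher and 0 lower, and of 39 cell cycle genes 0 were higher and 1 lower. Over all 43 lists, calls fell in 2, acute-phase and male-biased genes, and in 8 without the 2 micro ZnO arrays. The 8 lists share genes. Sult1e1 was called in the glucocorticoid, female-biased and conjugating enzyme lists, and Lcn2 in the acute-phase, neutrophil and glucocorticoid lists. The calls of the iron and heme list were Hp and Hpx, which are also acute-phase genes.

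**Figure D3:**
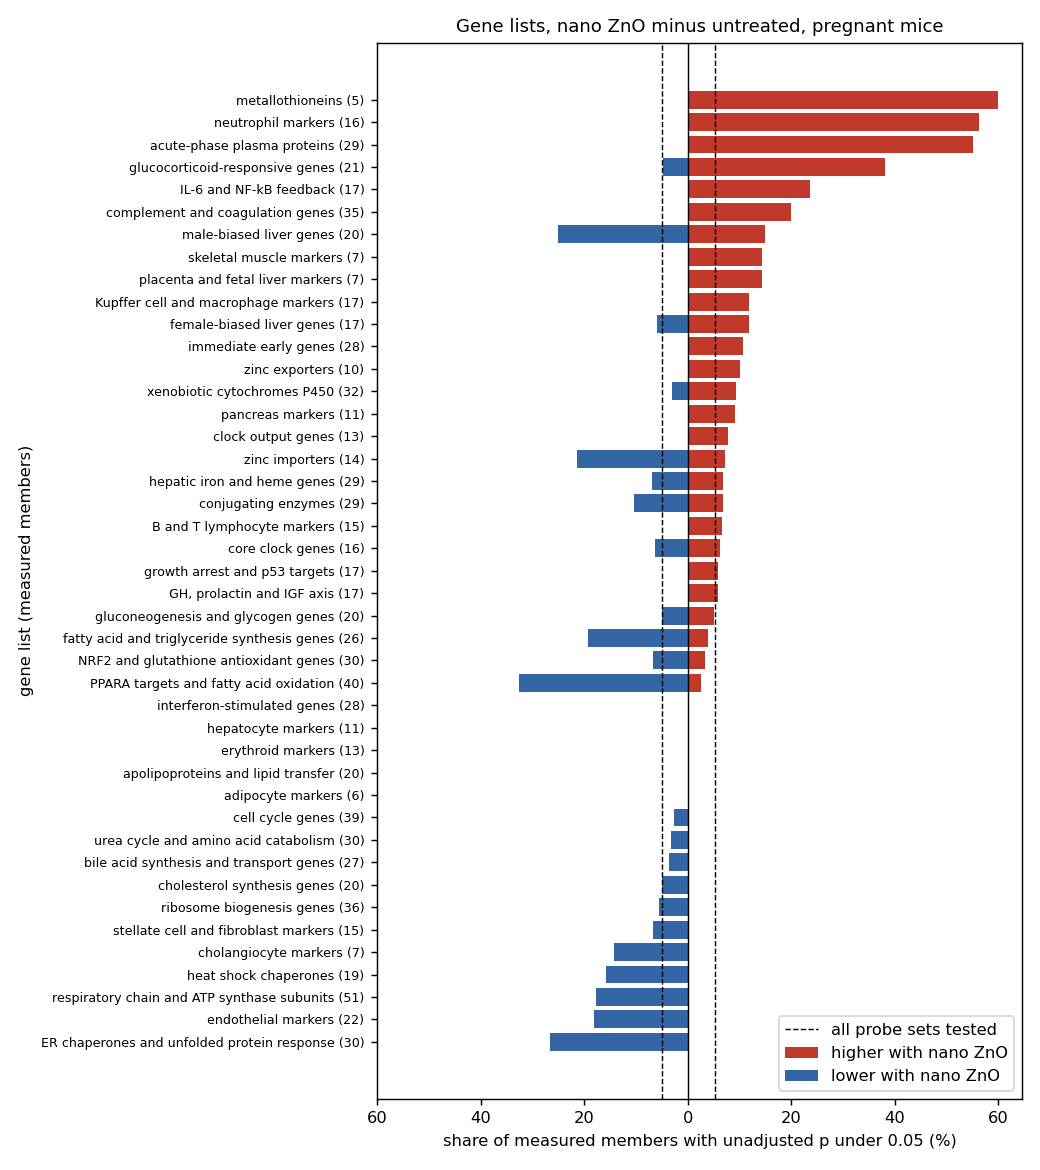
Share of measured members with an unadjusted p under 0.05 (x axis, %, higher to the right and lower to the left) in each of 43 gene lists (y axis, number of measured members in brackets). Dashed lines give the shares over all probe sets, 5.29% higher and 4.94% lower, and the acute-phase bar stands for 16 of 29 genes.

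Whether these differences belong to the nanoparticles is addressed by the arms that received the base alone or the base with microparticles. Nano ZnO against formulation gave 0 called probe sets (limma; percent called 0) and 718 at an unadjusted p under 0.05 (3.07%, with 1.79% higher and 1.28% lower). Nano ZnO against micro ZnO gave 0 called (percent called 0) and 1086 at an unadjusted p under 0.05 (4.64%, with 2.36% higher and 2.28% lower). The smallest adjusted p against formulation was 0.0788, for A3galt2, a glycosyltransferase gene, at -0.45 ± 0.08, and against micro ZnO it was 0.979.

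For Saa1 the formulation arrays ran from 9.05 through 10.90 to 11.23 (lowest, median and highest) and the micro ZnO arrays read 10.42, 10.55, 11.90, 12.32 and 10.11. They overlapped the nano ZnO arrays at 9.74 to 10.63. Nano ZnO minus formulation was -0.43 for Saa1, with a 95% confidence interval from -1.22 to 0.36, and -0.23 for Orm2, from -0.62 to 0.15. For Orm1 it was -0.11 (-0.30 to 0.09) and for Mup3 -0.11 (-0.52 to 0.30). The changes from untreated, which share the same 5 untreated mice, were 3.56 with nano ZnO, 3.99 with formulation and 4.46 with micro ZnO for Saa1. For Orm2 they were 2.82, 3.06 and 3.16, and for Mup3 -1.20, -1.09 and -1.40.

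Saa3 was the acute-phase gene furthest from the other sunscreens. The formulation arrays ran from 8.23 through 9.18 to 10.73 and the micro ZnO arrays read 9.25, 9.43, 12.47, 12.96 and 8.45, against 7.22 to 8.83 with nano ZnO. Nano ZnO minus formulation was -1.44 (-2.61 to -0.27) and nano ZnO minus micro ZnO -2.60 (-3.83 to -1.37), and neither passed (adjusted p = 0.979 for the latter). Without micro ZnO replicates 3 and 4 the latter was -1.13 (-1.93 to -0.33; adjusted p = 0.621). Against micro ZnO all 29 acute-phase changes were below 0, with a median of -0.33, but without those 2 arrays 12 of 29 were, with a median of 0.01. At an unadjusted p under 0.05, 9 of 29 were lower, beside 2.28% over all probe sets. Without those 2 arrays 1 of 29 was, beside 1867 of 23410 probe sets in either direction. Against formulation 26 of 29 were below 0, with a median of -0.11. Micro ZnO replicates 3 and 4 held the highest Saa1, Saa2 and Saa3 values of the micro ZnO arm. With them nano ZnO minus micro ZnO was -0.90 for Saa1 and -0.33 for Orm2. Without them it was -0.21 (-0.999 to 0.588) for Saa1 and -0.09 (-0.52 to 0.34) for Orm2.

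For the metallothioneins the intervals against both other sunscreens held 0. Nano ZnO minus formulation was -0.02 (-0.26 to 0.23) for Mt1 and -0.05 (-0.40 to 0.31) for Mt2, and nano ZnO minus micro ZnO was -0.02 (-0.28 to 0.24) and -0.09 (-0.46 to 0.28). For Slc39a4 the difference from formulation was 0.07 (-0.17 to 0.31).

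Kupffer cell markers had the highest share of members past an unadjusted p under 0.05 against formulation among the 43 lists. Of 17 markers 8 were higher with nano ZnO and 0 lower at an unadjusted p under 0.05, beside 1.79% higher over all probe sets, with a median of 0.35, and 0 were called. C1qb ran from 6.49 through 6.71 to 7.15 on formulation arrays and from 7.01 through 7.28 to 7.54 on nano ZnO arrays. The ranges overlapped slightly, and the difference was 0.47 (0.23 to 0.72). Averaged over the 17 markers, formulation arrays lay between 5.77 and 6.23 and untreated arrays between 5.95 and 6.24. Nano ZnO arrays lay between 6.00 and 6.52 (median 6.36) and micro ZnO arrays between 6.28 and 7.21 (median 6.34). Against micro ZnO 0 of 17 markers were higher and 5 lower at an unadjusted p under 0.05, beside 2.28% lower over all probe sets. Without the micro ZnO arrays that differed most from the rest, 0 were higher and 0 lower, with a median of 0.01.

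**Figure D4:**
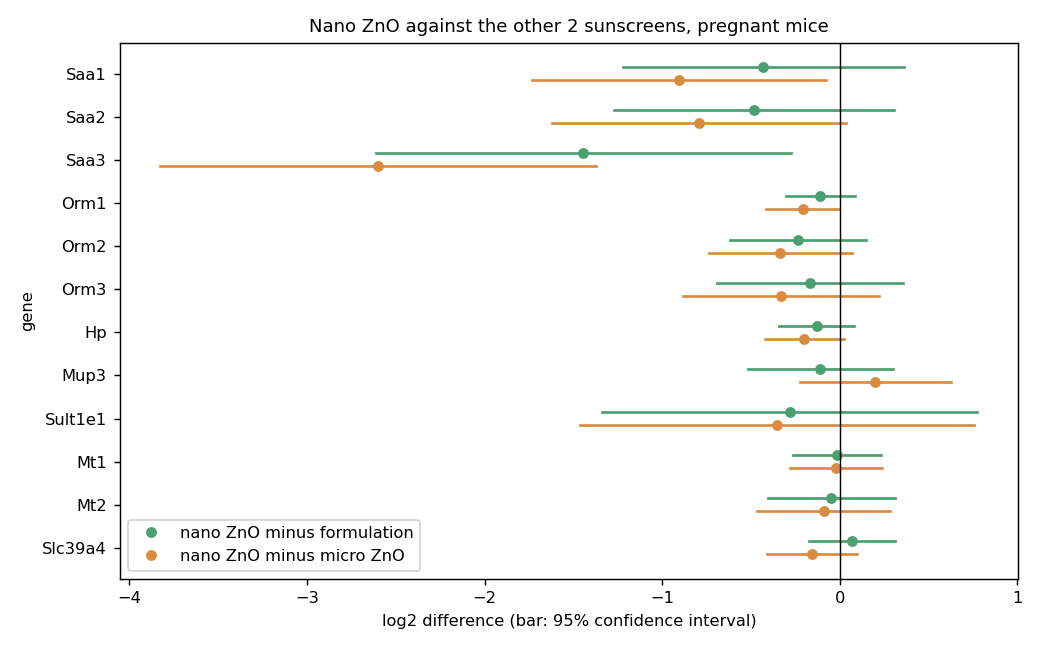
Log2 difference of nano ZnO from formulation and from micro ZnO (x axis, bar at the 95% confidence interval) for 12 genes (y axis) in pregnant mice. Intervals hold 0 for Orm2, Mup3, Mt1 and Mt2, and Saa3 lies furthest from 0 at -1.44 and -2.60 (-1.13 without micro ZnO replicates 3 and 4).

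The response of pregnant mice was set against that of virgin mice given nano ZnO by testing the difference of the 2 responses in a joint fit of all 46 arrays. The test called 10 of 23410 probe sets (percent called 0.0427), 9 with the pregnant response above the virgin response (0.0384%) and 1 below (0.00427%), and 1466 (6.26%) had an unadjusted p under 0.05. The median value of virgin arrays ran from 4.66 to 4.90, above all pregnant arrays, so levels are compared within an experiment only. A difference of the responses may go with pregnancy, with the experiment or with the scale of its values, and these cannot be told apart.

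Saa1 and Orm2 rose in virgin mice too. Saa1 changed by 2.93 ± 0.49 in virgin mice against 3.56 ± 0.40 in pregnant mice, a difference of 0.63 (95% interval -0.80 to 2.06). For Orm2 the virgin change was 2.61 ± 0.26 and the difference 0.21 (-0.56 to 0.99), and for Orm1, not called in virgin mice, they were 0.27 ± 0.11 and 0.44 (0.12 to 0.75; adjusted p = 0.609). Mup3 fell by 1.97 in virgin mice, and the difference was 0.77 (0.02 to 1.53; adjusted p = 0.786). These intervals do not show that the responses were alike.

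The zinc importer Slc39a4 was among the 10 called genes. In virgin mice it ran from 7.75 through 7.98 to 8.22 untreated and from 6.33 through 6.66 to 6.93 with nano ZnO, a fall by 1.35 with no overlap. In pregnant mice the difference from untreated was -0.42 ± 0.12, and the difference of the responses was 0.93 ± 0.16 (adjusted p = 0.00405). The metallothioneins did not pass this test. Mt1 differed from untreated by 1.38 ± 0.17 in virgin and 0.50 ± 0.13 in pregnant mice, a difference of -0.89 ± 0.25 (unadjusted p = 0.000818, adjusted p = 0.352). Mt2 differed by 1.44 ± 0.25 and 0.71 ± 0.18 (difference -0.73 ± 0.36, adjusted p = 0.792).

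In 3 further genes the level fell in virgin mice and was not called in pregnant mice. A1bg, a plasma glycoprotein gene, ran from 10.16 through 11.02 to 11.57 in untreated virgin mice and from 7.02 through 8.04 to 9.72 with nano ZnO, a change of -2.79 ± 0.31, against -0.28 ± 0.16 in pregnant mice (difference 2.51 ± 0.45, adjusted p = 0.00522). Ntrk2, a neurotrophin receptor, stood at -0.87 ± 0.10 in virgin and 0.11 ± 0.07 in pregnant mice (difference 0.98 ± 0.15, adjusted p = 0.000551). Serpinb1a, an inhibitor of neutrophil proteases, stood at -1.16 ± 0.16 and 0.26 ± 0.16 (difference 1.41 ± 0.23, adjusted p = 0.00289). In pregnant mice A1bg ran from 11.58 to 11.94 untreated and from 10.89 to 11.75 with nano ZnO, so its groups overlapped.

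Slc10a2, a bile acid transporter, and Cyp2a22, a cytochrome P450, had responses of opposite sign, of which the virgin ones were called. Slc10a2 stood at -1.37 ± 0.24 in virgin and 0.69 ± 0.23 in pregnant mice (difference 2.06 ± 0.35, adjusted p = 0.00405). In pregnant mice untreated replicate 4 was low for this gene, at 3.91 against 5.04 to 5.57 in the other untreated mice. Cyp2a22 stood at 1.01 ± 0.24 in virgin and -0.92 ± 0.21 in pregnant mice (adjusted p = 0.185 for the latter), the only called difference below 0 (-1.93 ± 0.35, adjusted p = 0.00596). Apoa4, an apolipoprotein, Ly6e, an interferon-inducible surface protein, P2ry10b, a receptor gene, and Gstm6, a glutathione transferase, differed by 0.75, 0.94, 0.57 and 1.01 (adjusted p = 0.0136, 0.0264, 0.0283 and 0.0453), and each lost its call in at least 1 alternative.

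Of the 20 male-biased liver genes 9 had a pregnant response above the virgin response and 1 below at an unadjusted p under 0.05, beside 3.17% and 3.09% over all probe sets, with a median difference of 0.41. Slco1a1 fell by 3.68 in virgin mice against a difference of -1.67 ± 0.56 in pregnant mice (difference 2.01 ± 0.68, adjusted p = 0.538). Of 20 cholesterol synthesis genes 0 were above and 7 below, with a median difference of -0.35. None of the genes of these 2 lists was called.

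**Figure D5:**
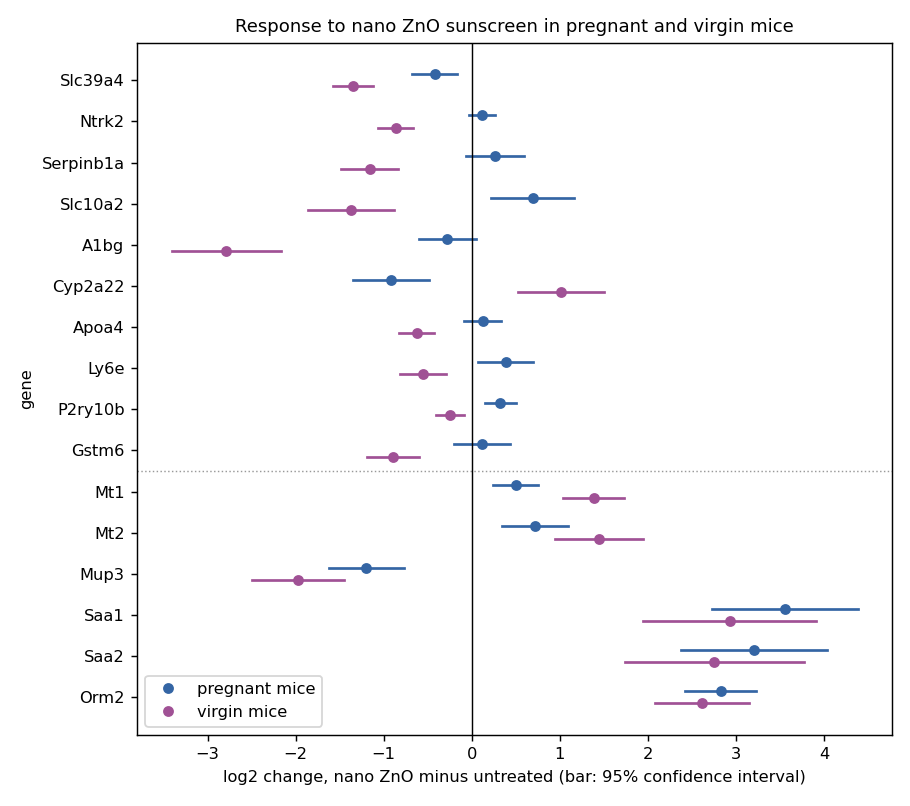
Log2 change from untreated to nano ZnO (x axis, bar at the 95% confidence interval) in pregnant and in virgin mice for the 10 genes whose responses differed (above the dotted line) and 6 others (y axis). Slc39a4 stands at -0.42 in pregnant and -1.35 in virgin mice, Cyp2a22 on opposite sides of 0, and Saa1, Saa2 and Orm2 overlap.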

How the data were processed

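The authors deposited 1 table of log2 intensities for 46 arrays. RMA, which corrects background, normalizes by quantiles and summarizes probes, is named in the submitters' processing notes without a version. Of 35512 probe sets, 21789 had 1 gene symbol and 1621 several, and these 23410 were tested. For genes measured more than once, the brightest probe set on average over pregnant arrays was used.

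The 22 pregnant arrays were fitted with 4 arm means in R 4.3.3 with limma 3.58.1, and all 46 arrays with 8 group means. Tests were two-sided, with Benjamini-Hochberg adjustment over 23410 probe sets, and "called" means an adjusted p under 0.05. Values after ± are SEs unless given as SD. The procedure was tested on simulated data. The p-values measure only the spread between these mice, which the titles call biological replicates.

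The comparison and the 43 gene lists (912 of 1018 members measured) were chosen with earlier results of these data known, and counts over lists are descriptions, not tests. Named genes are the called genes, others of smallest p up to 20, 6 zinc genes, up to 6 members of each list described, and for the other comparisons up to 5 called genes each way or the 3 of smallest p. Promoters came from RefSeq (GRCm38.p6), read with Python 3.11.15 and aligned with Biopython 1.88. The alternatives were a filter on dim probe sets, all probe sets, eBayes with trend and robust, array weights, further quantile normalization, only the compared groups, the replicate block, the interquartile range as a covariate, micro ZnO replicates 3 and 4 left out, each array left out and a 1.5-fold minimum.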

Additional observations from a re-analysis of the deposited data

Results flagged for a closer look

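Single arrays stood apart from the rest of their group by Dixon's test at 7 of 146 sets of values checked, and chance flags about 1 in 20. Nano ZnO replicate 1 was highest for Retnlg at 5.67 (others 4.32 to 4.59), S100a8 at 8.78 (others 5.95 to 6.84), Cxcr2 at 4.12 (others 3.17 to 3.41) and Hp at 12.81 (others 12.65 to 12.71). Without this array the differences from untreated were 0.74, 1.06, 0.40 and 0.51, all above 0 and none called with it or without it. Untreated replicate 4 was lowest for Saa1 at 5.20 (others 6.74 to 7.07) and Mpeg1 at 6.57 (others 6.95 to 7.04), and untreated replicate 5 was lowest for Clock, a core clock factor, at 6.26 (others at 6.82 or above).

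The response to nano ZnO differed between the experiment with pregnant mice and that with virgin mice by the interaction test in 10 genes. Pregnancy and experiment cannot be told apart here. Pregnant minus virgin, the log2 differences were 0.93 for Slc39a4, 0.98 for Ntrk2, 1.41 for Serpinb1a, 2.06 for Slc10a2, 2.51 for A1bg, -1.93 for Cyp2a22, 0.75 for Apoa4, 0.94 for Ly6e, 0.57 for P2ry10b and 1.01 for Gstm6.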

How the results depend on the processing

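Saa1, Saa2, Orm1 and Orm2 kept their calls in all 20 alternatives run for each, with changes of 3.21 to 3.68, 2.92 to 3.34, 0.66 to 0.76 and 2.69 to 3.05. The count of 5 called probe sets became 13 with array weights, 11 with only the compared groups in the fit and 31 without micro ZnO replicates 3 and 4 (24 higher and 7 lower, 5 of them shared with the 5), and ran from 4 to 10 with each array left out. The 10 came on dropping either nano ZnO replicate 2 or untreated replicate 2. Nano ZnO minus formulation gave 1 call (A3galt2) after further quantile normalization and 0 to 1 with an array left out, the 1 without formulation replicate 4. Nano ZnO minus micro ZnO gave 0 in every alternative run, including 0 with each array left out. The count of 10 for pregnant minus virgin responses was 6 with the replicate number as a block and 7 to 11 with an array left out. Slc39a4, Serpinb1a, Slc10a2, A1bg and Cyp2a22 kept that call in 32 of 32 alternatives. Ntrk2 kept it in 31 of 31, being too dim for the filter on dim probe sets, and Gstm6 lost it in 21 of 32, P2ry10b in 14 of 31, Ly6e in 10 of 32 and Apoa4 in 3 of 32. No log2 change from untreated reversed among 1457 alternative values over 73 genes, which do not include Hamp, Hamp2, the fibrinogens or the genes named for the pregnant and virgin comparison. This is a weak check, since many of the genes were picked for a small p in these data. The change itself also cannot move with the dim filter, all probe sets, trend and robust, the compared groups alone or micro ZnO replicates 3 and 4 left out. The titles do not say that replicate numbers pair mice. After group means were removed, same-numbered nano ZnO and untreated arrays correlated at -0.10 to 0.15, with 2 of 5 pairs over 0.1. Over all pregnant arms 12 of 31 same-numbered pairs were over 0.1, the highest at 0.23. Pairs of unlike number were not compared, so these values cannot settle whether mice were paired. With the replicate number as a block the count for nano ZnO minus untreated was 4, and Mup3 was no longer called (adjusted p = 0.0721). Mup3 also lost its call with all probe sets (0.0963), with trend and robust (0.0547) and with the interquartile range as a covariate (0.126), each of which left 4 calls. With 5 and 6 mice a group and no dye or detection call among the values used, small changes of dim probe sets cannot be resolved. The cause of these moves was not tested.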

Other observations

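Probe sets of small nucleolar and Y RNAs stood among the smallest p values after the acute-phase genes. Snord22 differed by 0.82 ± 0.16, Snord47 by 1.01 ± 0.20 and Rny3 by 0.61 ± 0.12 (adjusted p = 0.0751 for each). Without micro ZnO replicates 3 and 4 these adjusted p were 0.0317, 0.0402 and 0.0363, so all 3 passed, and for all 3 every nano ZnO array was above every untreated array. In a fit of the 2 groups alone Snord22 and Snord47 were called and Rny3 was not. The class was gathered after these values were seen, so it has no test. Of its 60 probe sets 56 were above 0, with a median of 0.22, beside 52.9% above 0 over all probe sets. At an unadjusted p under 0.05, 22 were higher and 1 lower, beside 5.29% higher over all. Averaged over the class, untreated arrays lay between 4.27 and 4.51, nano ZnO arrays between 4.48 and 4.97 and formulation arrays between 4.52 and 4.71. The changes from untreated with formulation and micro ZnO, which share these untreated mice, were above 0 at 54 and 45 of the 60, and in virgin mice given nano ZnO at 45 of 60, with a median of 0.13. RNA quality values were not among the data used here, and their part in this was not tested.

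Other probe sets with small p values, not called with all pregnant arrays in the fit, were Coro6, a coronin gene, at 0.43 ± 0.09, Cryba1, a crystallin gene, at 0.43 ± 0.09, Sh3pxd2b, a scaffold protein of podosomes, at 0.45 ± 0.10, the RIKEN gene B130055M24Rik at 0.39 ± 0.08 and Acat1, an enzyme of ketone body metabolism, at -0.52 ± 0.12. Without micro ZnO replicates 3 and 4, Coro6, Cryba1 and Acat1 were called (adjusted p = 0.0402, 0.0441 and 0.0317). None of these was called in a fit of the 2 groups alone. Cryba1 was also higher than with formulation (0.30 ± 0.09) and than with micro ZnO (0.28 ± 0.09), while its level with nano ZnO, 2.35 ± 0.20 (SD, n = 6), was low on this scale.

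Among genes of the circadian clock and of foreign compound metabolism, Clock differed by -0.49 ± 0.16, and the cytochromes P450 Cyp3a13 and Cyp2b10 by 0.54 ± 0.17 and 0.66 ± 0.28. None was called.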
